A study of Mus musculus with 2 samples.

Results

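The genes described are the nuclear-encoded subunits of the oxidative phosphorylation complexes I, IV and V, with the complex I assembly factors and a pair of related factors that carry the same kind of name. They were taken by symbol, as every gene that starts with Nduf, Cox4i, Cox5, Cox6a1, Cox6b, Cox6c, Cox7a, Cox7b, Cox7c, Cox8a or Atp5. Of 16383 genes analysed, 77 carry such a symbol, and 73 of these held at least 50 unique molecular identifiers (UMIs, each standing for 1 captured RNA molecule) over both libraries. The 73 genes comprise 36 subunits of complex I, 12 of complex IV, 15 of complex V, 8 complex I assembly factors (Ndufaf1 to Ndufaf8) and the factors Cox7a2l and Atp5s. Ndufa4 was counted with complex IV, of which it is now known to be a subunit. The 4 genes under the limit were Cox4i2 with 3 UMIs, Cox6b2 with 45, Cox7b2 with 1 and Ndufa4l2 with 29, and the nearest gene above it was Cox7a1 with 68.

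The cells were liver nonparenchymal cells (NPCs, the endothelial, immune and other cells that are not hepatocytes) of male C57BL/6 mice. The control library came from mice on a chow diet and the NASH library from mice on a methionine-choline deficient (MCD) diet, a dietary model of nonalcoholic steatohepatitis (NASH). Mice were 8 weeks old at the start, stayed on the diet for 6 weeks, and 3 livers per diet were pooled into 1 library before single cells were captured. With 1 library per diet there is no replicate, so no difference between diets was tested and every interval covers counting error only.

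Oxidative phosphorylation couples the oxidation of nutrients to the synthesis of ATP in the inner mitochondrial membrane. Complex I takes electrons from NADH and pumps protons, complex IV (cytochrome c oxidase) passes electrons to oxygen and pumps protons, and complex V (ATP synthase) lets protons flow back to make ATP. The catalytic core of complex IV and parts of the other complexes are encoded by mitochondrial DNA. Those genes were not analysed here. Nor were complexes II and III as such, though Cyc1 and Bcs1l of complex III were on lists of further genes counted below.

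Cells needed at least 500 UMIs and 200 genes, a limit that 4209 control cells (97.1%) and 3710 NASH cells (95.3%) passed. The median cell held 1683 UMIs (control) or 1654 (NASH), and the totals were 11399278 and 9249745 UMIs. The libraries shared 21 cell labels. The cells fell into 20 clusters, which were named from marker lists, and a name such as LSEC-like (liver sinusoidal endothelial cell-like) stands for clusters that carried at least 3 markers of the list among their 50 leading genes. These names were rebuilt here and may differ from the study's. Comparisons between diets used the 9 classes with at least 50 cells in each library. These were LSEC-like, VEC-like (vascular endothelial), Kupffer cell-like, monocyte or macrophage-like, conventional dendritic cell-like (cDC-like), neutrophil-like, T cell-like, NK cell-like and B cell-like cells. The genes described were kept out of the clustering. The markers listed for LSECs summed to 48348 CPM (UMIs per 1000000 UMIs) in control and 45296 in NASH LSEC-like cells. Those for Kupffer cells summed to 31111 and 29094 CPM in Kupffer cell-like cells. Since the same lists gave the names, these sums describe the classes and do not check the names. In VEC-like cells the markers of vascular endothelium summed to 11398 and 9998 CPM, below those of LSECs at 15406 and 18992 CPM, so these cells carried both sets. When cells were named one by one by their detected markers of the same lists, 15.1% of control and 7.63% of NASH VEC-like cells kept their name. For cDC-like cells these shares were 62.4% and 51.3%, and for monocyte or macrophage-like cells 78.3% and 63.3%. The other classes compared lay between 78.9% and 99.8%.

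The sequences before the RefSeq start (GRCm38.p6) are shown for the paralogs that encode the membrane ring of ATP synthase (Atp5g1, Atp5g2 and Atp5g3), since these genes share their mature protein, and for Cox5a and Ndufa8, whose levels stood apart in Kupffer cell-like and in endothelial cells. Each window runs 5′ to 3′ on the strand of the gene, starts 250 bases before the start, and ends before any base that GENCODE M21 annotates as an exon of the gene.
Atp5g1, chr11:96075671-96075881, minus strand: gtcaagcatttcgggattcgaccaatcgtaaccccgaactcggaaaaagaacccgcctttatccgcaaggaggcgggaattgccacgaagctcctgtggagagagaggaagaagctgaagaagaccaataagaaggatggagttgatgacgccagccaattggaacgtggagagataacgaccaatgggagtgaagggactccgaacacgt
Atp5g2, chr15:102671128-102671297, minus strand: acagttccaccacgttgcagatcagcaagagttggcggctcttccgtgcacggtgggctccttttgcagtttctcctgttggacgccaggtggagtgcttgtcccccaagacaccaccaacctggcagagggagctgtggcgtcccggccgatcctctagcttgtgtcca
Atp5g3, chr2:73911327-73911576, minus strand: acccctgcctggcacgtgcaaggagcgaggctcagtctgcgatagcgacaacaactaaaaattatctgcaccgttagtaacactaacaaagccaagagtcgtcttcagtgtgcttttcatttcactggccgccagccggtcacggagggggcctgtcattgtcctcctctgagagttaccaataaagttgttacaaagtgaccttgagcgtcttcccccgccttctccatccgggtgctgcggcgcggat
Cox5a, chr9:57520982-57521231, plus strand: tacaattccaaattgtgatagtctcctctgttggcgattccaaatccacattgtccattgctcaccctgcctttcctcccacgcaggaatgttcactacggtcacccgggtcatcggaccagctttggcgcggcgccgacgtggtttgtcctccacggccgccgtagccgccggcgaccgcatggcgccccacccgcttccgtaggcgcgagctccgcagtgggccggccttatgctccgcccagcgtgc
Ndufa8, chr2:36049407-36049588, minus strand: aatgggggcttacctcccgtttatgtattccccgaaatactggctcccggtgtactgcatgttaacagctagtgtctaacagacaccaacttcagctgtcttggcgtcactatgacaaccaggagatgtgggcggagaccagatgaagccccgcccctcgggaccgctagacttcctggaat
None of these stretches held the motif of NRF1 (nuclear respiratory factor), which reads GCGC, A, any base and GCGC again, or CCGGAAG, the motif of the ETS family, on either strand. G and C made up 51.7% of the Atp5g1 stretch, 54.0% for Atp5g3, 60.0% for Atp5g2, 53.8% for Ndufa8 and 63.2% for Cox5a. In Atp5g2 and Ndufa8 the exon bases left out held 1 match to the NRF1 motif each, ending 32 and 20 bases before the RefSeq start, shown in capitals with 10 bases on either side. The Ndufa8 match reads as the motif on the opposite strand of the one printed. Atp5g3 held a match only after its RefSeq start, outside the stretch shown.
Atp5g2, chr15:102671070-102671099, minus strand: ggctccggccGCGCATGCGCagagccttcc
Ndufa8, chr2:36049349-36049378, minus strand: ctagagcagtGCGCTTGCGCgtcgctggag
The Atp5g2 window lies inside the annotated gene (chr15:102662864-102672352), between first exons of different transcripts. Cox5a spans chr9:57521274-57532426 and Ndufa8 chr2:36036326-36049406 in GENCODE M21 on GRCm38.

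Windows of 300 bases, from 250 before to 50 after the start, were on hand for 65 of the 73 genes, 70 windows in all. The NRF1 motif occurred in 17 of them (24.3%), against 4.6% of all 32851 windows. The ETS motif occurred in 14 (20%, against 8.86%) and AAGATGGC, the motif of YY1, in 11 (15.7%, against 2.75%). By complex, 8 of 34 windows of complex I, 1 of 10 of complex IV and 6 of 17 of complex V held the NRF1 motif. The genes' windows were richer in G and C, with a median of 58.8% against 52.7% for all windows. CCAAT was found in 41.4% of the windows and 37.4% of all, TATAAA in 8.57% and 13.6%, and TCAAGGTCA, the motif of estrogen-related receptors, in 1.43% and 0.423%. All 6 motifs were searched on both strands, and 3 genes held both the NRF1 and the ETS motif.

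Over the whole libraries the 73 genes held 172910 UMIs, or 1.52%, in the control and 139022, or 1.503%, in the NASH library. The sum differed 3.02-fold between the highest and the lowest of the 9 classes in the control library (95% interval 2.92 to 3.13) and 2.94-fold in the NASH library (2.77 to 3.13). T cell-like cells were highest in both, with 18750 CPM in control and 18498 in NASH cells. Neutrophil-like cells were lowest in both, with 6205 and 6284 CPM.

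Between these, cDC-like cells stood at 18051 CPM in control and 17001 in NASH cells, and NK cell-like cells at 17336 and 17922. VEC-like cells held 16527 and 16252 CPM, Kupffer cell-like cells 16347 and 14508, and monocyte or macrophage-like cells 15888 and 15909. LSEC-like cells, with 14105 and 12728 CPM, and B cell-like cells, with 12466 and 11909, lay below the other classes except the neutrophil-like cells in both libraries. The middle of the order was close: VEC-like and Kupffer cell-like cells overlapped in their control intervals (16196 to 16862 and 16207 to 16488), whereas in the NASH library they were apart.

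**Figure D1:**
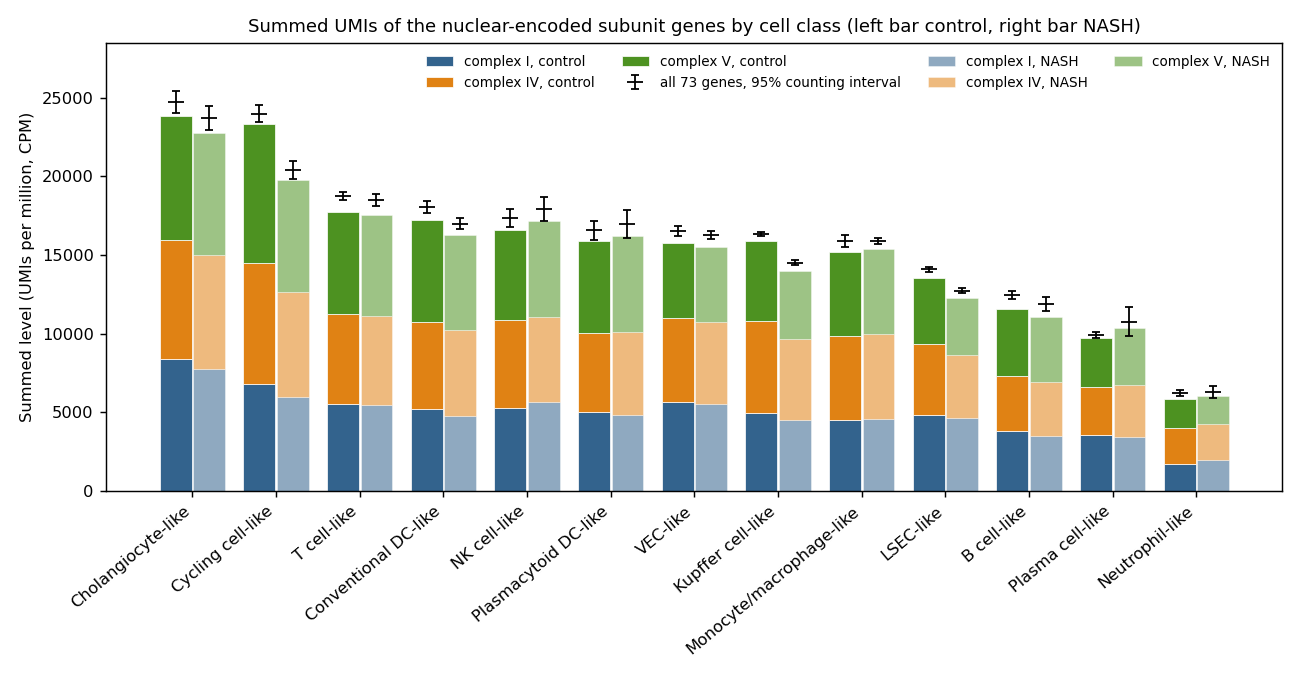
Summed level in CPM of the nuclear-encoded subunit genes by cell class, with complexes I, IV and V stacked (left bar control, right bar NASH) and a black mark with its 95% counting interval for all 73 genes. T cell-like cells reached 18750 CPM in the control library and neutrophil-like cells 6205.

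Some of the classes with fewer than 50 cells in a library lay higher still. Hepatocyte-like cells, of which the control library held 16 and the NASH library 1, stood highest in the control library at 45117 CPM. Cholangiocyte-like cells (44 control and 35 NASH cells) held 24728 and 23689 CPM, with hepatocyte markers at 6941 and 15872 CPM whose part was not tested, and cycling cells (49 and 40) held 23996 and 20397. Plasmacytoid dendritic cell-like (pDC-like) cells (55 and 25) held 16575 and 16957 CPM, and plasma cell-like cells (110 and 6) held 9908 and 10747.

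The complexes did not contribute in the same proportion everywhere. In LSEC-like cells the UMIs of complex V came to 0.87 of those of complex I in the control library (0.85 to 0.90) and to 0.77 in the NASH library (0.75 to 0.79). VEC-like cells had similar ratios of 0.84 and 0.86. In the other classes compared the control ratio lay at or above 1.03, the value of Kupffer cell-like cells, and reached 1.24 in cDC-like cells (1.18 to 1.30). Both endothelial classes thus held fewer complex V than complex I UMIs in both libraries, whereas cDC-like (1.24 and 1.27), T cell-like (1.16 and 1.16), B cell-like (1.12 and 1.18) and monocyte or macrophage-like cells (1.18 and 1.16) held more. In the NASH library the ratio was also under 1 in Kupffer cell-like cells, at 0.97 (0.94 to 1.00), and in neutrophil-like cells, at 0.90 with an interval that holds 1. Among the smaller classes, plasma cell-like cells were at 0.86 (0.82 to 0.90) in 110 control cells and 1.07 in 6 NASH cells. Cholangiocyte-like cells were at 0.95 and 0.99, with intervals that hold 1, while pDC-like and cycling cells were above 1 in both libraries. The ratio of complex IV to complex I was 0.93 and 0.86 in LSEC-like cells, 1.19 and 1.15 in Kupffer cell-like cells, and 1.30 and 1.17 in neutrophil-like cells.

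Between diets, the summed level of the 73 genes was lower in the NASH library in Kupffer cell-like and LSEC-like cells and within 0.09 of it on the log2 scale in the other classes. In Kupffer cell-like cells (499 control and 477 NASH cells) it went from 16347 to 14508 CPM, a log2 ratio of NASH to control of -0.17 (-0.19 to -0.15). In LSEC-like cells (1243 and 1541) it went from 14105 to 12728 CPM, a log2 ratio of -0.15 (-0.17 to -0.13). In cDC-like cells (101 and 113) the log2 ratio was -0.09 (-0.13 to -0.05), and in B cell-like cells (627 and 194) -0.07 (-0.13 to -0.01). The intervals held 0 in the remaining classes. These ratios were -0.02 in VEC-like (192 and 380 cells), -0.02 in T cell-like (551 and 331), 0.00 in monocyte or macrophage-like (152 and 357), 0.02 in neutrophil-like (446 and 118) and 0.05 in NK cell-like cells (115 and 76). In monocyte or macrophage-like cells the clusters differed, with -0.03 in cluster 8 (122 and 263 cells) and 0.19 (0.10 to 0.28) in cluster 12 (30 and 94), where complex V was at 0.24 (0.09 to 0.40). Within bins of depth that class stood at -0.10 for 2000 to 4000 UMIs and 0.05 for 4000 or more, and B cell-like cells at -0.03 for 500 to 1000 UMIs and 0.00 for 1000 to 2000. Without replicate libraries the size of these differences cannot be set against the spread between mice.

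In Kupffer cell-like cells all 3 complexes were lower in the NASH library. Complex I went from 4931 to 4496 CPM (log2 ratio -0.13, -0.17 to -0.10), complex IV from 5866 to 5158 (-0.19, -0.22 to -0.15) and complex V from 5067 to 4356 (-0.22, -0.25 to -0.18). The difference was spread over the genes. Of 70 genes with at least 50 UMIs in the class, 64 (91.4%) had a log2 ratio below 0, against 50.7% of all 6213 genes, with a median of -0.15 against 0.00. By complex these were 34 of 36 genes of complex I, 11 of 11 of complex IV and 14 of 15 of complex V. None of the 70 passed 1.5-fold in either direction, where 5.44% of all genes were higher and 3.35% lower by that size.

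Depth moved with this result: the median cell of the class held 6161 UMIs in control and 4566 in NASH cells. Within bins of depth the log2 ratio was -0.30 for cells with 500 to 1000 UMIs, 0.00 for 1000 to 2000, -0.08 for 2000 to 4000 and -0.18 for 4000 or more. With each cell thinned to 1000 UMIs, and under the other settings tried, it stayed between -0.19 and -0.17. Thinning keeps the expected share of the genes in each cell and only evens out the weight of the cells. It is therefore no test of depth, whose part was not tested.

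In LSEC-like cells the complexes differed in order. Complex I stood at 4834 CPM in control and 4651 in NASH cells (log2 ratio -0.06, -0.09 to -0.02). Complex IV stood at 4508 and 4023 (-0.16, -0.21 to -0.12), and complex V at 4213 and 3579 (-0.24, -0.28 to -0.19). The log2 ratio of complex V relative to that of complex I was -0.18 (-0.24 to -0.12). Of 70 genes, 57 (81.4%) lay below 0, against 51.2% of all 6247 genes, and their median was -0.16 against -0.01. All 11 genes of complex IV and 14 of 15 of complex V lay below 0, but 25 of 36 of complex I.

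The value in LSEC-like cells depended on how the cells were taken. Cells were also named one by one by their detected markers in place of clusters. This needed at least 2 LSEC markers, and a larger share of the LSEC list than of any other. It took 1471 control and 2059 NASH cells, of which 1240 and 1537 were LSEC-like and 139 and 335 VEC-like by cluster. A further 8 and 69 were monocyte or macrophage-like, 10 and 37 cDC-like, 17 and 26 Kupffer cell-like and 18 and 5 B cell-like. In these cells the log2 ratio of all genes was -0.04, and complex V relative to complex I was -0.02. The part of the cells from other classes was not tested. Thinned to 1000 UMIs per cell the ratio of all genes was -0.09. Within bins of depth it was -0.15 for cells with 500 to 1000 UMIs, -0.05 for 1000 to 2000 and -0.08 for 2000 to 4000. Complex V was lower in all 3 bins, at -0.28, -0.12 and -0.10, whereas complex I was at 0.01, 0.02 and -0.05 with intervals that hold 0. The class joins 2 clusters, cluster 0 with 842 control and 802 NASH cells and cluster 1 with 401 and 739. Within cluster 0 the sum went from 14721 to 13708 CPM (log2 ratio -0.10) and within cluster 1 from 11073 to 10628 (-0.06), both closer to 0 than in the class as a whole. Complex V was lower within both, at 4415 and 3930 CPM in cluster 0 and 3215 and 2826 in cluster 1, whereas complex I differed by -0.03 and 0.05. Malat1, a nuclear noncoding RNA, stood at 7128 CPM in control and 9852 in NASH cells of this class, and the median depth was 1603 and 1215 UMIs. The part of either in the result was not tested.

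**Figure D2:**
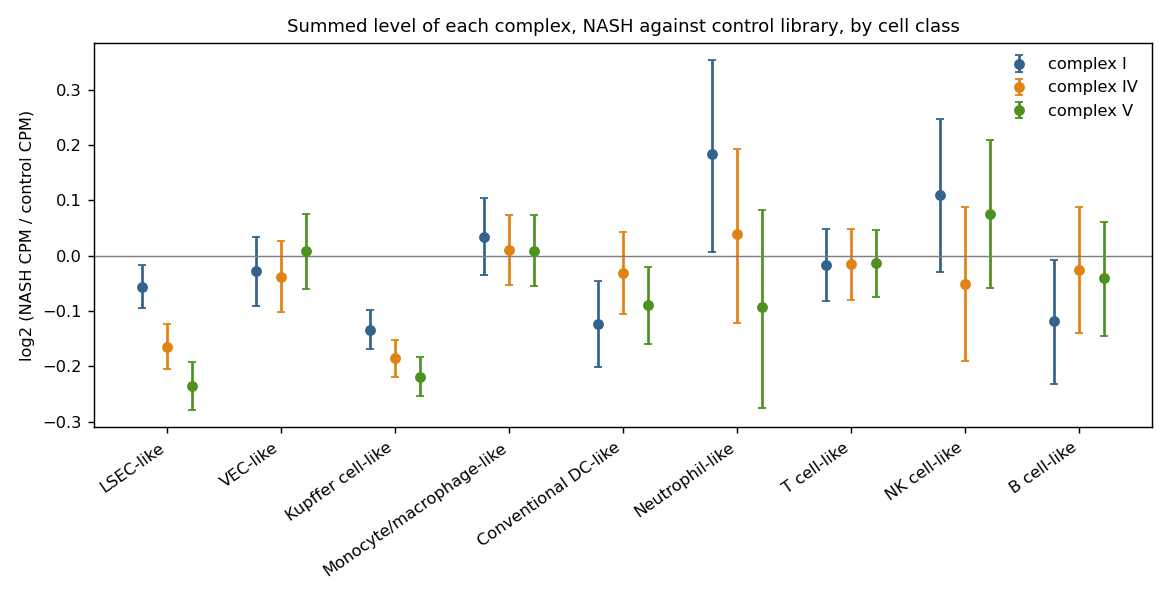
Log2 ratio of the NASH to the control library for the summed CPM of complexes I, IV and V in each of 9 cell classes, with 95% counting intervals. In LSEC-like and Kupffer cell-like cells all 3 complexes lie below 0, lowest for complex V at -0.24 and -0.22, whereas the complexes of T cell-like and VEC-like cells lie near 0.

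In neutrophil-like cells complex I had the opposite sign, with 1732 CPM in control and 1964 in NASH cells (log2 ratio 0.18, 0.01 to 0.35), whereas complex V stood at 1891 and 1772 (-0.09, -0.27 to 0.08). These sums rest on 118 NASH cells. In the larger of the 2 clusters of the class alone, with 432 and 70 cells, complex I was at 0.23 (0.00 to 0.44), complex V at 0.04 and the sum of all genes at 0.14. Among the cells with 1000 to 2000 UMIs, 380 and 93, complex I was at 0.00 (-0.22 to 0.21), while complex V was at -0.37 (-0.61 to -0.15) and the sum at -0.10. The markers listed for LSECs summed to 1016 CPM in control and 3610 in NASH cells of this class, with all 12 detected in both. Those listed for hepatocytes summed to 2578 and 1326 CPM. They include Hp, which was among the 50 leading genes of the larger cluster of this class. The part of either list in the result was not tested. Among the classes under 50 cells in a library, cycling cells had a log2 ratio of -0.23 (-0.29 to -0.18) and complex V at -0.32 (-0.40 to -0.23). In cycling cells the Kupffer cell markers summed to 934 CPM in control and 3232 in NASH cells, the LSEC markers to 2299 and 4037, and Malat1 stood at 1438 and 2508 CPM, and their part was not tested.

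Among single genes, 25 differences between diets in 8 of the 9 classes passed 1.5-fold, and in every class and direction their share lay below that of all genes tested there. In LSEC-like cells 0 of 70 genes were higher and 3 lower, where 4.72% and 5.73% of all genes were. Ndufs3, a core subunit of complex I, stood at 67.4 CPM in control and 37.1 in NASH cells (log2 ratio -0.86, -1.27 to -0.46). Ndufs8, a core subunit that holds iron-sulfur clusters, stood at 63.5 and 40.8 CPM (-0.64, -1.04 to -0.25), and the assembly factor Ndufaf3 at 39.7 and 24.1 CPM (-0.71, -1.24 to -0.21). In the other classes neither core subunit passed 1.5-fold among those with enough UMIs, with Ndufs3 at 59.7 and 56.3 CPM in Kupffer cell-like cells and 57.3 and 54.5 in VEC-like cells.

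Below that fold, the other complexes held genes with lower levels in NASH LSEC-like cells. Cox4i1, the regulatory subunit of complex IV, stood at 530 CPM in the control (501 to 560) and 392 in the NASH library (366 to 420). Atp5b, the catalytic beta subunit of ATP synthase, stood at 214 and 147 CPM (log2 ratio -0.53, -0.74 to -0.33). Cox7c, by contrast, was level at 791 and 789 CPM. The highest ratios in complex I were those of Ndufa8, an accessory subunit that faces the intermembrane space, at 185 and 253 CPM (0.45, 0.27 to 0.64), and Ndufb2, of the membrane arm, at 30.3 and 42.7 CPM (0.49, 0.03 to 0.96).

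In Kupffer cell-like cells the lowest ratio of complex I was that of Ndufb7, another subunit of the intermembrane side, at 112 CPM in control and 75.5 in NASH cells (log2 ratio -0.56, -0.83 to -0.30). Atp5o, which joins the catalytic head of ATP synthase to its stalk, stood at 349 and 255 CPM (-0.45, -0.60 to -0.31). Cox5b, the zinc-binding subunit of complex IV, stood at 110 and 84.4 CPM (-0.38, -0.64 to -0.13). The few genes above 0 were the assembly factor Ndufaf6 at 9.74 and 13.6 CPM (0.49, -0.27 to 1.25), Ndufa11 at 18.2 and 20.5 (0.17, -0.42 to 0.74), Cox7a2l at 296 and 325 (0.14), Atp5j2 at 104 and 114 (0.14), Ndufa8 at 115 and 123 (0.10) and Ndufaf1 at 16.6 in both (0.00). The intervals of all 6 held 0.

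VEC-like cells had 1 higher and 2 lower of 67 genes, where 6.6% and 8.5% of all genes were. Ndufs1, the largest core subunit of complex I, stood at 76.4 CPM in control and 137 in NASH cells (log2 ratio 0.83, 0.35 to 1.37). Ndufb2 stood at 43.4 and 26.3 CPM and Ndufa11 at 41.7 and 26.3, each with an interval that holds 0. Erythroid markers summed to 38.2 CPM in control and 778 in NASH cells of this class, and their part was not tested.

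Monocyte or macrophage-like cells had 2 higher and 1 lower of 64 genes, where 11.8% and 14.7% of all genes were. Atp5j2, the f subunit of the membrane part of ATP synthase, stood at 61.1 and 121 CPM (log2 ratio 0.97, 0.42 to 1.6). Cox7a2l, which helps respiratory complexes join into supercomplexes, stood at 525 CPM in the control (463 to 593) and 350 in the NASH library (321 to 381). Ndufa5 stood at 48.9 and 75.0 CPM, with an interval that holds 0.

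Neutrophil-like cells had 2 higher and 3 lower of 29 genes, where 19.8% and 19.9% of all genes were. Cox7a2l was lower here too, at 269 CPM in the control (232 to 311) and 132 in the NASH library (84.6 to 196). Atp5l, the g subunit of ATP synthase, stood at 446 and 286 CPM (log2 ratio -0.63) and Ndufa13 at 142 and 71.5 (-0.94). Cox7b stood at 50.6 and 99.0 CPM (0.99) and Atp5d at 56.4 and 99.0 (0.83, interval from -0.08). All 5 rest on at most 52 UMIs in the NASH library.

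The lymphoid and dendritic classes held few such genes. B cell-like cells had 1 higher and 3 lower of 59, where 6.37% and 7.32% of all genes were. Atp5o stood at 211 and 135 CPM (log2 ratio -0.63, -1.24 to -0.09) and Ndufa5 at 56.8 and 21.05 (-1.31), the latter from 45 and 5 UMIs. Ndufs4 (-0.76) and Ndufa9 (0.70) had intervals that hold 0. T cell-like cells had 1 higher and 1 lower of 64, where 5.39% and 5.76% were, Ndufs6 at 74.6 and 116 CPM (0.64) and Ndufaf3 at 42.6 and 24.0 (-0.79). NK cell-like cells had 2 higher and 1 lower of 40, where 7.81% and 6.52% were, Ndufa12 (0.89), Ndufa7 (0.62) and Cox5b (-0.90). The cDC-like cells had 0 higher and 2 lower of 61, where 6.75% and 6.29% were, Ndufb6 at 131 and 81.1 CPM (-0.69) and Ndufaf8 at 67.6 and 42.4 (-0.66). The intervals of Ndufaf3 in T cell-like, Ndufa7 and Cox5b in NK cell-like and Ndufaf8 in cDC-like cells also held 0. The medians of the genes were -0.13 in cDC-like, -0.08 in B cell-like, 0.00 in T cell-like and 0.04 in NK cell-like cells, against -0.03, -0.01, -0.01 and -0.02 for all genes. In VEC-like, monocyte or macrophage-like and neutrophil-like cells they were -0.06, 0.04 and 0.10, against -0.01, -0.06 and -0.04.

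**Figure D3:**
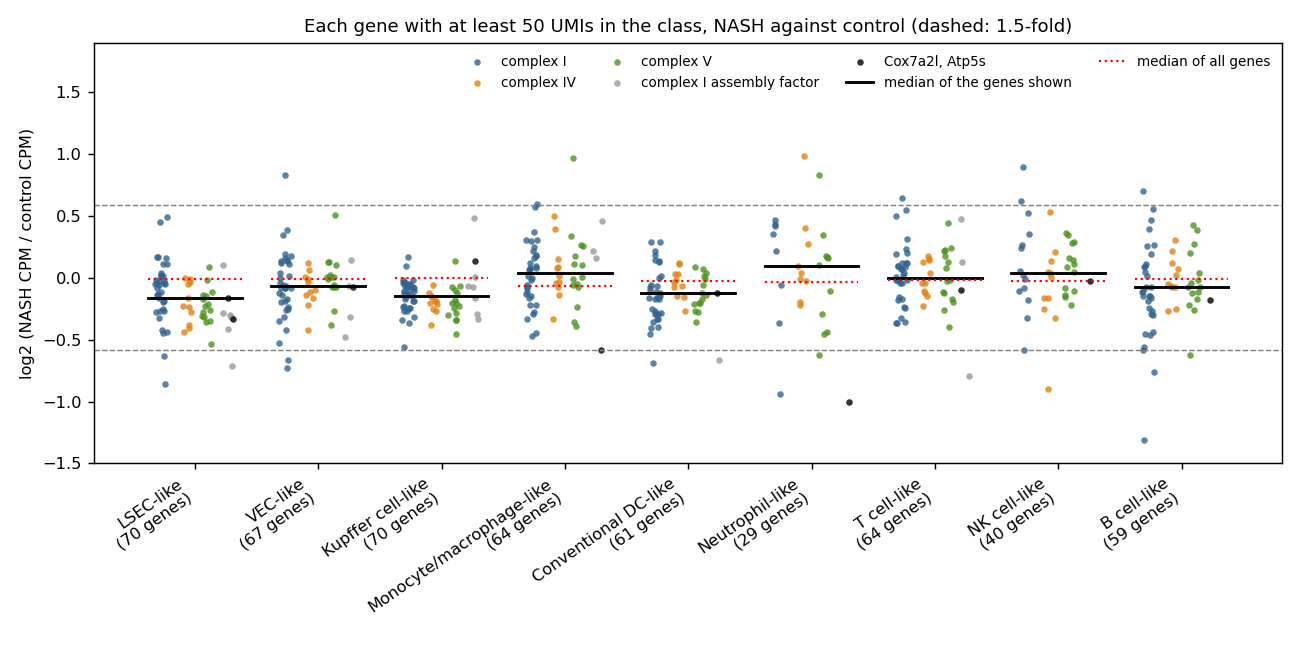
Log2 ratio of NASH to control for each gene with at least 50 UMIs in a class, coloured by complex, with the median of the genes shown (black line), the median of all genes (red dots) and 1.5-fold (dashed lines). In Kupffer cell-like cells 64 of 70 points lie below 0 and none passes 1.5-fold.

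The genes with the most UMIs of each complex show the span between classes. Ndufa2, of the matrix arm of complex I, ranged from 165 CPM in neutrophil-like to 476 in NK cell-like cells of the control library, and from 209 to 448 in the same classes of the NASH library. Cox7c, of complex IV, ranged from 237 CPM in neutrophil-like to 914 in Kupffer cell-like cells of the control library and from 231 to 950 in NASH, the latter in cDC-like cells. Atp5a1, the alpha subunit of the catalytic head of ATP synthase, ranged from 171 CPM in neutrophil-like to 890 in T cell-like cells of the control library and from 138 to 928 in NASH, the latter in NK cell-like cells. The lowest level was in neutrophil-like cells for these 3 genes in both libraries. Ndufa1, Ndufa3, Cox4i1, Cox6a1, Cox6c and Atp5h had their lowest control level there too, between 129 CPM for Ndufa3 and 343 for Cox4i1.

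Single genes were then compared between classes. Each class was set against the mean of the other 8 in each library, for the 72 genes with at least 50 UMIs over the 9 classes, and the genes at 1.5-fold or more in the same direction in both libraries were named. The shares of all genes given beside them are per library. No such share was counted for both libraries at once. In Kupffer cell-like cells 2 genes were higher in control and 1 in NASH cells, where 13.2% and 13.6% of all genes were, and the gene higher in both was Cox5a. Cox5a, a subunit of complex IV that binds regulatory ligands together with Cox4i1, stood at 807 CPM in the control (776 to 839) and 709 in the NASH library (675 to 743). Every other class compared lay between 47.7 and 361 CPM, the latter in monocyte or macrophage-like cells of the NASH library. The log2 ratio to the other classes was 2.13 and 1.79. Cox5a took 13.8% and 13.7% of the complex IV UMIs of Kupffer cell-like cells, and 2.12% in control neutrophil-like and 2.34% in NASH LSEC-like cells, the lowest of each library.

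In LSEC-like cells the same gene was lower than in the other classes, at 123 CPM in control and 94.1 in NASH cells (log2 ratios -1.13 and -1.57). It was also lower in VEC-like (167 and 149 CPM) and B cell-like cells (130 and 122). In VEC-like cells 3 genes were lower in control and 2 in NASH cells, where 31.2% and 30.3% of all genes were, and Cox5a was the gene lower in both. The 4 genes lower in both libraries in Kupffer cell-like cells were Ndufb11, of the membrane arm of complex I (101 and 88.2 CPM, log2 ratios -1.13 and -1.05), Ndufa6, Ndufaf3 and Ndufaf5. In all, 6 genes were lower in control and 7 in NASH cells, where 42.4% and 42.2% of all genes were.

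Ndufa8 was highest in the endothelial classes. It stood at 372 CPM in the control (324 to 425) and 361 in the NASH library (325 to 400) in VEC-like cells, and at 185 and 253 in LSEC-like cells. The remaining classes compared lay between 44.0 and 123 CPM in both libraries, below both endothelial classes. Both endothelial classes shared 2 further complex I genes that were higher in both libraries. Ndufc2, of the membrane arm, stood at 248 and 278 CPM in LSEC-like and 259 and 285 in VEC-like cells, and Ndufa5, of the matrix arm, at 131 and 119 in LSEC-like and 139 and 122 in VEC-like cells. Cox6c, Ndufc1 and Ndufaf2 passed the fold in both libraries in VEC-like cells and in none of the other classes. Per library, 13 and 12 genes were higher in VEC-like cells (27.4% and 26.6% of all genes) and 6 and 4 in LSEC-like cells (23.5% and 24.6%).

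LSEC-like cells were lower in both libraries for 6 genes, among 7 in control and 11 in NASH cells, where 34.4% and 33.8% of all genes were. Besides Cox5a these were Cox8a of complex IV, Cox7a2l, and the ATP synthase subunits Atp5d, Atp5e and Atp5f1. Atp5e, the epsilon subunit of the catalytic head, stood at 209 CPM in control and 185 in NASH LSEC-like cells, and at 528 and 460 in T cell-like cells. Cox8a stood at 409 and 347 CPM in LSEC-like cells, below every other class in both libraries.

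T cell-like cells were higher in both libraries for 7 genes, of 13 and 15 per library, where 24.6% and 24.1% of all genes were. These were Ndufa9, Ndufa10 and Ndufv3 of complex I, the assembly factors Ndufaf4 and Ndufaf5, Atp5d and Cox7a2l, which stood at 741 and 690 CPM. Lower in T cell-like cells were 3 genes in control and 0 in NASH cells, where 31.1% and 33.6% of all genes were. B cell-like cells were lower in both for 13 genes, of 20 and 26, where 36.3% and 39.4% were. Ndufa8 had the lowest control ratio, at 46.7 and 54.7 CPM (log2 ratios -1.52 and -1.38), and 10 others belong to complexes I and IV. Per library 2 genes were higher there, where 22.4% and 23.1% of all genes were, and Ndufaf1 was higher in both, at 29.0 and 37.9 CPM.

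In cDC-like cells 11 and 6 genes were higher, where 14.5% and 13.7% of all genes were, among them Atp5c1, Atp5f1, Cox7b and Ndufaf6 in both libraries. There 2 and 4 genes were lower, where 38.3% and 39.6% were, with Ndufa8 in both. In NK cell-like cells 9 and 16 genes were higher, where 21.9% and 24.2% were, with Ndufa13, a subunit of complex I, in both. There 3 and 6 were lower, where 37.4% and 39.6% were, with Ndufc2 in both. Monocyte or macrophage-like cells had 1 gene higher in each library, where 11.3% and 10.3% were, and 7 and 2 lower, where 39.5% and 41.2% were. Atp5s and Ndufaf5 were lower there in both libraries.

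Neutrophil-like cells were lower in the control for 65 of 72 genes and in the NASH library for 59, and 58 were lower in both. Here 69.2% and 63.9% of all genes were lower, and the medians of the 72 genes were -1.70 and -1.40 against -1.51 and -1.24 for all genes. Ndufa5 held 2 UMIs in control and 0 in NASH cells of this class, the latter with an upper bound of 20.3 CPM. Among the 14 genes not lower in both were Atp5l, with log2 ratios of 0.11 and -0.46, and Cox8a, with -0.25 and -0.38. Cox8a made up 24.5% and 20.8% of the complex IV UMIs of neutrophil-like cells and Atp5l 23.6% and 16.1% of those of complex V, the highest shares of the 9 classes.

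**Figure D4:**
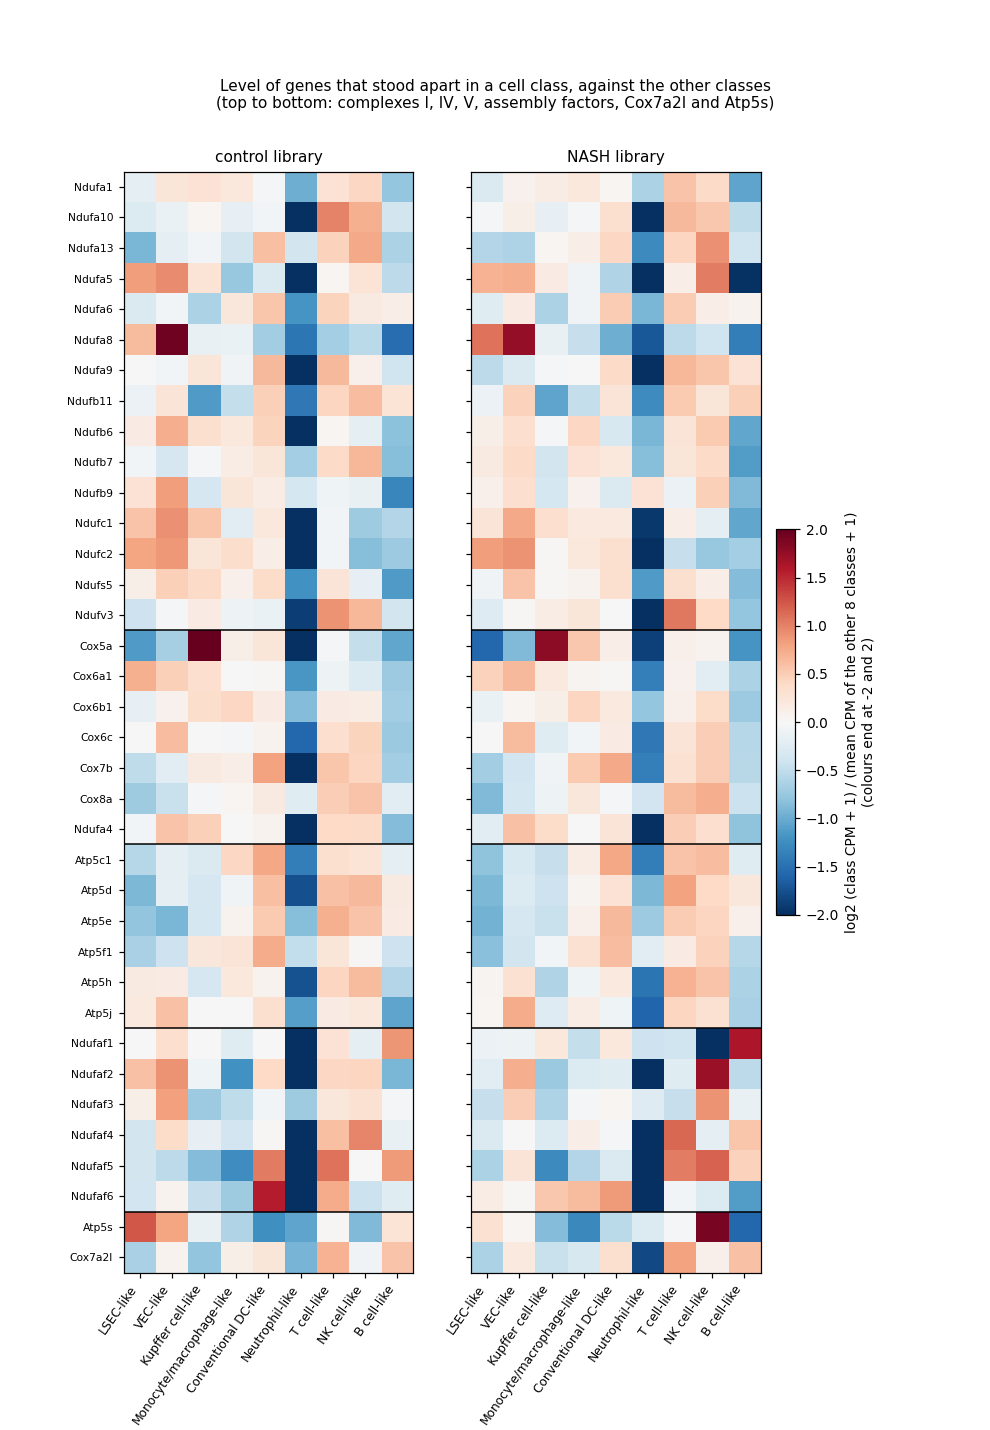
Log2 ratio of the level in a class to the mean of the other 8 classes, control (left) and NASH (right), ordered by complex, for the 36 genes at 1.5-fold or more in the same direction in both libraries in a class other than the neutrophil-like cells. Cox5a is high in Kupffer cell-like cells (2.13 and 1.79) and Ndufa8 in VEC-like cells (1.95 and 1.76), and most genes are low in neutrophil-like cells.

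The assembly factors, which build complex I but leave the finished enzyme, were low in each of the 9 classes compared. Their sum lay between 62.2 CPM in control neutrophil-like and 292 in control T cell-like cells. Outside these classes, cholangiocyte-like cells held 390 CPM in control and 365 in NASH cells. In cDC-like cells it was 276 CPM in control and 195 in NASH cells (log2 ratio -0.50, -0.87 to -0.13), and in LSEC-like cells 207 and 171 (-0.28, -0.48 to -0.08). In the other classes the interval held 0. Atp5s, a coupling factor of ATP synthase, held at most 40.0 CPM in any of the 9 classes.

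Paralogs give the version of a subunit whose RNA a class held. Atp5g1, Atp5g2 and Atp5g3 encode the same mature c subunit of the ATP synthase ring with different import signals. Atp5g2 made up 57.6% of their UMIs in control B cell-like cells (54.3% to 61.0%) and 51.9% in NASH (45.9% to 57.9%), the highest in each library. In Kupffer cell-like cells it made up 42.1% and 42.0%, level with Atp5g3 at 43.7% and 42.8%. Atp5g1 had the smallest share in each class, with shares between 10.3% and 18.5%. In each of the 9 classes the control and NASH intervals of all 3 shares overlapped.

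Cox6a2, the heart and muscle form of subunit 6a, was not among the genes taken by symbol and was examined as the paralog of Cox6a1. It was kept out of the clustering and the naming of clusters, along with the genes described. It held 277 UMIs in the 55 control pDC-like cells and 118 in the 25 NASH ones, or 1619 CPM (1434 to 1821) and 1489 CPM (1232 to 1783). These were 79.8% and 76.6% of the Cox6a1 and Cox6a2 UMIs of the class. No other class held more than 8 UMIs of it in a library. Cox7a1, the muscle form of Cox7a2, held 15 and 7 UMIs in cholangiocyte-like cells, or 75.0 and 44.1 CPM, and 16 and 8 UMIs in Kupffer cell-like cells, or 5.03 and 3.41 CPM. It made up 16.0% and 11.9% of the pair in cholangiocyte-like cells. Cox4i2, Cox6b2 and Ndufa4l2 were near 0 in each of the 9 classes, at most 11.3 CPM.

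**Figure D5:**
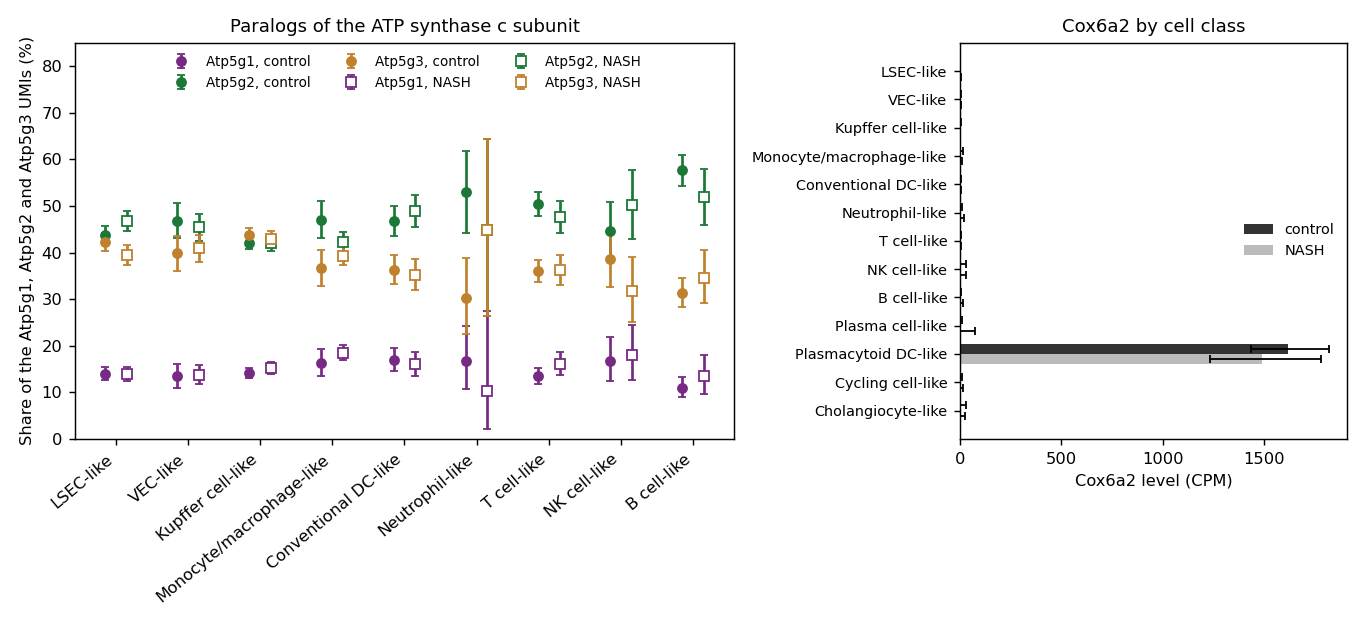
Left, share of Atp5g1, Atp5g2 and Atp5g3 among their summed UMIs in 9 cell classes (control circles, NASH squares). Right, level of Cox6a2 in CPM by class, with 95% counting intervals in both panels. Cox6a2 reached 1619 and 1489 CPM in pDC-like cells and was near 0 elsewhere.

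Other genes of mitochondrial energy metabolism were counted by list over the 9 classes, at 50 UMIs or more per class. By class, between 4.72% and 19.8% of all genes were higher and between 3.35% and 19.9% lower by 1.5-fold. Of 82 pairs of a complex IV assembly factor and a class, 1 was higher and 2 were lower by 1.5-fold in the NASH library. Of 16 pairs for assembly factors with other names, listed for complex I but with Bcs1l of complex III among them, 0 were higher and 2 lower. Of 60 pairs for further subunits and partners, 4 were higher and 7 lower. That list also named Cyc1 of complex III and Dap3 of the mitochondrial ribosome. Within it Atpif1, the inhibitor of ATP synthase, passed the fold in 3 classes. It stood at 304 CPM in control and 201 in NASH LSEC-like cells (log2 ratio -0.60, -0.77 to -0.42) and at 439 and 256 in VEC-like cells (-0.78, -1.03 to -0.52). In monocyte or macrophage-like cells it stood at 193 and 294 CPM (0.60, 0.28 to 0.94), the opposite direction. Cycs, cytochrome c, stood at 76.4 and 44.8 CPM in VEC-like cells (-0.77, -1.40 to -0.14).

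The mitochondrial ribosome translates the subunits encoded by mitochondrial DNA. Its 77 genes gave 429 pairs, 21 higher and 37 lower. In LSEC-like cells 1 of 76 genes was higher and 7 lower, where 4.72% and 5.73% of all genes were. In Kupffer cell-like cells 2 of 77 were higher and 2 lower, where 5.44% and 3.35% were. The medians there were -0.13 and -0.15, close to those of the subunit genes, against -0.01 and 0.00 for all genes. In the other classes the median lay between -0.09 in cDC-like and 0.27 in neutrophil-like cells, the latter from 6 genes. Of 96 pairs of the pyruvate oxidation and TCA cycle list, 4 were higher and 5 lower. By class, 4.72% to 19.8% of all genes were higher and 3.35% to 19.9% lower. The glycolysis list had 103 pairs, 11 higher and 4 lower, and 8 of the 11 fell in monocyte or macrophage-like cells, where 13 genes of the list were compared and 11.8% of all genes were higher. In these cells the summed glycolysis level went from 5005 to 8340 CPM, with Aldoa at 660 and 1494 CPM (log2 ratio 1.18, 1.01 to 1.35) and Ldha, which makes lactate, at 269 and 647 (1.26, 1.01 to 1.54). The subunit genes of the same cells held 15888 and 15909 CPM. The makeup of the class moved as well: its own markers summed to 15075 CPM in control and 9422 in NASH cells, Kupffer cell markers to 1050 and 1963, and erythroid markers to 18.3 and 131, and their part in the glycolysis levels was not tested.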

How the data were processed

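Single-cell RNA-seq was measured in 2 libraries of liver NPCs, 1 per diet. The deposited tables hold raw UMI counts per cell and gene, made by the authors with the BD Rhapsody whole transcriptome pipeline; the submitters' processing notes name GRCm38. A label names 10x Genomics, while the study's methods name BD Rhapsody. The genes run in alphabetical order only to Rad54l2. Gene names for the NASH columns were taken from the control header by position, as the NASH table lacks them; over the 77 genes the Pearson correlation of log2 CPM between libraries was 0.997 in this order and at most 0.10 at shifts of 1 to 3 columns. No authors' comparison columns were used, and 0 columns belonged to other samples.

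Cells with at least 500 UMIs and 200 genes were kept. Counts were log-normalized to 10000 and clustered in Seurat 5.3.0 (R 4.3.3) with 2000 variable genes other than those described, 50 principal components and a resolution of 0.6. Clusters were named from fixed marker lists (at least 3 among the 50 leading genes). Scrublet in scanpy 1.11.5 called 52 control and 3 NASH doublets (1.24% and 0.0809%), too few in NASH for the caller to have worked, and all were kept. Counts were summed per class and library and given as CPM with exact Poisson 95% intervals. Ratios carry exact binomial intervals and 0.5 UMI was added for single genes; UMIs count molecules, and the intervals cover counting error only. A class was set against the mean of the other 8 after adding 1 CPM. No test was run, since each diet has 1 library, and genes past 1.5-fold are a count by size. Intervals and ratios were tested on simulated Poisson counts that had no spread between cells or mice (Python 3.11.15, NumPy 2.4.6, SciPy 1.17.1, pandas 2.3.3).

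The genes and lists were chosen with earlier results of these data known. Named genes are, per complex, the 4 with the most UMIs, the 2 highest and 2 lowest diet ratios in LSEC-, Kupffer cell- and B cell-like cells, the widest class ranges, paralogs, assembly factors, genes past 1.5-fold, and up to 3 per list. Genes at 1.5-fold or more against other classes in both libraries were added after their values were seen. Alternatives varied the cell filter, depth, class naming, doublets, scaling, pseudocount and gene filter. Promoter windows are RefSeq's (GRCm38.p6). Genes with no window on hand include Atp5a1, Cox4i1, Cox6c, Ndufa2, Ndufaf6, Ndufb9 and Ndufs1. Single-gene values of some genes are not reported here.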

Additional observations from a re-analysis of the deposited data

Results flagged for a closer look

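Complex I had opposite signs between classes. Its log2 ratio of NASH to control was 0.18 in neutrophil-like cells (0.01 to 0.35), but -0.056 in LSEC-like, -0.13 in Kupffer cell-like, -0.12 in cDC-like and -0.12 in B cell-like cells, with each interval on its own side of 0. Among cells with 1000 to 2000 UMIs, 380 control and 93 NASH neutrophil-like cells, it was 0.00 (-0.22 to 0.21). In LSEC-like cells it was 0.01 for cells with 500 to 1000 UMIs, 0.02 for 1000 to 2000 and 0.05 in cluster 1, each with an interval that holds 0. B cell-like cells stood at -0.03 for 500 to 1000 UMIs and -0.10 for 1000 to 2000, with intervals that hold 0. For cDC-like cells it was -0.26 (-0.46 to -0.06) for 2000 to 4000 UMIs and -0.07 (-0.16 to 0.01) for 4000 or more. Kupffer cell-like cells stood at -0.10, -0.01 and -0.05 in the bins below 4000 UMIs, with intervals that hold 0, and at -0.15 (-0.19 to -0.11) above. With 1 library per diet the difference between classes was not tested. The neutrophil-like NASH cells numbered 118, and LSEC markers summed to 1016 CPM in control and 3610 in NASH cells of that class. Their part in the result was not tested.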

How the results depend on the processing

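No paired analysis was possible because each diet has 1 library, so there was also no replicate to leave out. In LSEC-, Kupffer cell-, cDC- and B cell-like cells, where the interval lay apart from 0, the ratio of the summed genes kept its sign under each alternative, bins of depth aside. Elsewhere signs turned, to -0.031 in the larger cluster of monocyte or macrophage-like cells, -0.035 as the mean over neutrophil-like cells, -0.029 with NK cell-like cells named by markers and 0.00 with median-of-ratios scaling in T cell-like cells. The median of single genes turned from -0.08 to 0.03 in B cell-like cells with a pseudocount of 5 UMIs and from 0.10 to -0.20 in neutrophil-like cells at 200 UMIs. The log2 ratio of the summed genes in LSEC-like cells was -0.12 with cells of at least 1000 UMIs, -0.090 thinned to 1000 UMIs, -0.036 with cells named one by one by markers and -0.10 in the larger cluster. In VEC-like cells it was -0.072 thinned, in monocyte or macrophage-like cells 0.052 with median-of-ratios scaling, in cDC-like cells -0.0067 with cells named by markers and -0.13 as the mean over cells, and in neutrophil-like cells 0.14 in the larger cluster. VEC-like cells named one by one were too few to be compared. The fold between highest and lowest class in the control library was 3.15 without the 5% of cells with the highest doublet scores. The number of genes past 1.5-fold followed the filter. At 200 UMIs neutrophil-like cells had 0 higher and 2 lower of 7 genes, where 14.9% and 23.9% of all genes were. The number was 0 in VEC- (of 49 genes), cDC- (34), T cell- (44), NK cell- (7) and B cell-like cells (22). In these classes 1.71% to 4.96% of all genes were higher and 2.11% to 4.39% lower. At 10 UMIs the number was 5 in VEC-, 8 in monocyte or macrophage-, 6 in cDC-, 23 in neutrophil-, 5 in T cell-, 14 in NK cell- and 8 in B cell-like cells. The 23 were 15 higher and 8 lower of 62, where 31.4% and 19.5% of all genes were. In the other 6 classes just named 9.91% to 17.8% of all genes were higher and 12.6% to 19.2% lower. With a pseudocount of 5 UMIs the number was 1 in cDC- and 1 in T cell-like cells. There 5.34% and 4.87%, and 5.74% and 3.3%, of all genes were higher and lower. B cell-like cells turned from 1 higher and 3 lower to 3 higher and 0 lower of 59, where 10.9% and 2.05% were. Neutrophil-like cells had 4 higher and 2 lower of 29, where 25.1% and 11.6% were. With the subunits alone the number was 1 in cDC- (6.75% and 6.29%) and 1 in T cell-like cells (5.39% and 5.76%). Without the highest doublet scores it was 1 of 70 in Kupffer cell-like cells, where 5.22% of all genes were higher and 3.55% lower. In neutrophil-like cells it was 3 of 27 (18.3% and 19.96%). In the larger cluster alone it was 5 of 63 in monocyte or macrophage- (14.6% and 18.3%) and 4 of 56 in T cell-like cells (7.63% and 8.08%). The alternatives on doublet scores and on single clusters were chosen after seeing the data. The causes of these shifts were not tested, except that the filters change how many genes are compared. The fewest single genes could be compared in NK cell-like and neutrophil-like cells, where 40 and 29 genes reached 50 UMIs.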

Other observations

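Genes that control mitochondrial gene expression and removal were counted over the same 9 classes. The list of regulators gave 55 pairs of a gene and a class, with 2 higher and 3 lower by 1.5-fold in the NASH library, where by class 4.72% to 19.8% of all genes were higher and 3.35% to 19.9% lower. Gabpa, a subunit of the ETS factor also known as NRF2, stood at 139 CPM in control and 82.8 in NASH cells in VEC-like cells (log2 ratio -0.75) and at 98.4 and 173 in B cell-like cells (0.82). The mitophagy list gave 69 pairs, with 4 higher and 1 lower. Pink1, a kinase that marks damaged mitochondria, stood at 61.6 and 94.2 CPM in Kupffer cell-like cells (0.61, 0.33 to 0.90).

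Of the TCA cycle genes, Mdh2, malate dehydrogenase, stood at 95.7 and 164 CPM in monocyte or macrophage-like cells (0.76). None of these differences was tested. In neutrophil-like cells 3 of 10 glycolysis genes were lower by 1.5-fold, where 19.9% of all genes were, Gapdh at 2192 and 1458 CPM (-0.59), Eno1 at 602 and 391 (-0.61) and Hk2 at 169 and 71.5 (-1.19).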
